A study of Homo sapiens with 4 samples.

Results

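ALDH1A2 and 8 further genes of retinoic acid signalling were followed in HEK293T cells that lack HELZ, a helicase with a zinc finger that associates with the CCR4-NOT deadenylase complex. The 9 genes (ALDH1A2, DHRS3, CRABP1, CRABP2, RARA, RARB, RARG, RXRA and RXRB) were taken by symbol from the 27011 genes of the deposited read count table, and cover synthesis, binding proteins and receptors of retinoic acid. They were selected on the log2 fold changes of this same Helz-null against WT contrast, which were already known. Their changes and calls are therefore a description and no independent test, and no exact p-value is printed for them. The data consist of 4 RNA-Seq libraries, 2 replicates of wild-type (WT) and 2 of HELZ-null HEK293T cells, written Helz-null here, with no treatment in either group. HEK293T cells are an established line from human embryonic kidney. The Helz-null cells are 1 line made from them with Cas9 and a guide to the helz gene, which left a frameshift. The sources used here do not say whether that line was grown from 1 cell, and a property of the line cannot be told apart from an effect of HELZ loss.

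In Helz-null cells ALDH1A2 mRNA was at 25.1% of the WT level, RARB at 56.0%, DHRS3 at 67.6% and RARG at 77.2%. RARA, RXRA, RXRB and CRABP2 stood between 101% and 112% of WT, and CRABP1 had no read in any library. A gene was called when the quasi-likelihood F test of edgeR, run across the whole table, gave a false discovery rate (FDR) under 0.005. Of the 8 members with enough reads for the test, 4 were called lower, beside 11.5% of all 16087 genes tested. None was called higher by edgeR or by DESeq2, beside 9.83% of all genes tested, and 1 member (RXRA) was higher at an unadjusted p under 0.05. The median log2 fold change (log2FC) of the 8 members was -0.18, and that of all genes tested was -0.0016. Because the members were selected on these changes, the counts and the median do not measure an enrichment.

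Retinoic acid is made from vitamin A in successive oxidations, the last of them by retinaldehyde dehydrogenases such as ALDH1A2. It binds retinoic acid receptors (RARs), which sit on DNA as pairs with retinoid X receptors (RXRs), usually on direct repeats of a short half-site, and raise transcription of nearby genes when the ligand is present. Cells limit the signal by reducing retinaldehyde back to retinol, the work of DHRS3, and by degrading retinoic acid with CYP26 enzymes. RARB, DHRS3, CYP26A1 and several 3′ HOX genes are textbook genes induced by retinoic acid, and the pathway patterns the hindbrain, limbs and kidney of the embryo.

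The promoter sequences of the member with the largest change and of the receptor classed as a retinoic acid-induced gene are shown first. Promoter windows of 250 bases before and 50 bases after each annotated start came from RefSeq on GRCh38.p14, a later build than the hg19 of the counts, and matched 9 of 9 members with 19 windows in all. They were searched on both strands for 2 half-sites (AGGTCA or AGTTCA or GGGTCA or GGTTCA) in direct repeat with 1, 2 or 5 bases between them. Capitals mark a repeat. The first ALDH1A2 window (chr15:58065662-58065961, minus strand) is followed by the RARB window with a repeat (chr3:25428013-25428312, plus strand).
ALDH1A2: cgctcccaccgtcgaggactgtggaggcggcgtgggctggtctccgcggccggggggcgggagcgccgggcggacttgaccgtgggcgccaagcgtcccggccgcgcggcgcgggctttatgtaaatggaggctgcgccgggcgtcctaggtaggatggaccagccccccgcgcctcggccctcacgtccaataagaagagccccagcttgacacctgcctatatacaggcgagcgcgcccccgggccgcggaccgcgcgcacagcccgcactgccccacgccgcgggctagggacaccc
RARB: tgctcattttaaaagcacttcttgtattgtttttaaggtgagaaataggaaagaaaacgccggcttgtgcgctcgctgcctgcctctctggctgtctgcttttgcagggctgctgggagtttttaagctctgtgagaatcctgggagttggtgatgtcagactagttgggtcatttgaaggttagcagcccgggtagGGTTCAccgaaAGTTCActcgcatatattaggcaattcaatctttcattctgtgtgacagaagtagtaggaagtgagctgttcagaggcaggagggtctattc

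One of the 19 windows held such a repeat, that of RARB with a spacing of 5 bases, from 53 to 37 bases before the start. Among all 35116 windows of the RefSeq table, 0.0883% held a repeat with this spacing, 0.131% one with a spacing of 1 base and 0.0399% one with a spacing of 2 bases. Neither ALDH1A2 window held a repeat, and the first held 0 single half-sites and the second 1, where 38.6% of all windows held at least 1. Among the genes of the 5 pathway lists used below, a window of CYP26A1 was the only other one with a repeat, also with 5 bases between the half-sites and on the opposite strand (chr10:93073803-93073819).
RARB repeat: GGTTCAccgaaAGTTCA
CYP26A1 repeat: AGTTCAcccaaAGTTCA
Both genes were called lower in Helz-null cells, with the values given below, beside 11.5% of all genes tested. Both were chosen with earlier results of these data known. Among all RefSeq genes searched, 29 had a window with a repeat of this spacing. Whether such a repeat goes with a lower call was not tested. A match of letters is not a measured binding site.

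Library totals ranged from 41745401 to 70464140 counts, so that 3 counts, the floor used here, correspond to between 0.0421 and 0.0718 CPM (the counts of a gene as a part of its library's total, scaled to a common library size with the TMM method of edgeR). The biological coefficient of variation was 2.73%. The edited gene HELZ (chromosome 17 of hg19, 65066560 to 65242105) had 97.6 and 102 CPM in the WT libraries and 36.1 and 37.05 CPM in the Helz-null libraries (log2FC -1.44, standard error 0.043, adjusted p = 1.43e-23 from edgeR), in the direction of the labels. The 7 genes listed as markers of HEK293T cells (NEFL, NEFM, INA, VIM, KRT8, KRT18 and LIN28B) each had at least 13.6 CPM in every library. NEFM was called higher and INA, VIM, KRT8 and KRT18 were called lower in Helz-null cells, with log2FC from -1.06 for INA to 0.88 for NEFM, and their part in the results below was not tested. Of 5 blood cell markers only CD14 had enough reads for the test, PTPRC had at most 2 counts in a library and HBB had 0 in all. Of 6 fibroblast markers 4 were tested and 0 were called by edgeR. COL1A1 had 14.0 to 15.6 CPM and COL3A1 2.22 to 3.37 CPM over the libraries. LUM and PDGFRB had at most 0.622 and 0.463 CPM, COL1A2 at most 3 counts in a library, and DCN 0 counts. In bulk RNA, fewer cells that express a gene and less RNA per cell cannot be told apart.

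ALDH1A2 (chromosome 15, 58245622 to 58790065 on the minus strand), the dehydrogenase that forms retinoic acid from retinaldehyde, had 46.5 and 45.6 CPM in the 2 WT libraries and 11.9 and 11.2 CPM in the 2 Helz-null libraries. The groups lay far apart, and the 2 libraries of a group differed by at most 0.092 on the log2 scale. Its log2FC was -2.004 (standard error 0.062), a 3.99-fold lower mean in Helz-null cells, which ranked 79th of the 16087 genes from the lowest log2FC. It rests on 2987 and 1905 counts in WT and on 504 and 797 counts in Helz-null cells. AQP9 and LIPC, whose annotated spans overlap that of ALDH1A2 on the other strand, had 0 counts in every library. The 20 genes nearest to ALDH1A2, 10 on each side, with a mean log2 CPM of at least 2 had a median log2FC of 0.015, with 2 called higher and 1 called lower.

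**Figure D1:**
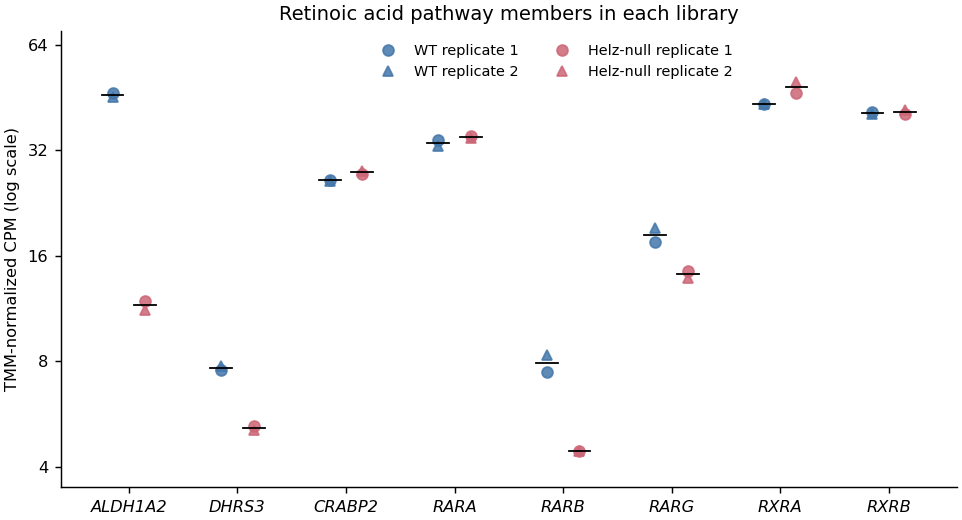
TMM-normalized CPM (log axis) of the 8 members with reads, for WT (blue) and Helz-null (red) libraries, with circles for replicate 1, triangles for replicate 2 and a bar at each mean. ALDH1A2, DHRS3, RARB and RARG sit lower in both Helz-null libraries, and the RXRB values of the 2 groups overlap.

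The other dehydrogenases of the family were compared per gene length, as FPKM, the TMM-normalized CPM divided by the gene's length in kilobases. In WT cells ALDH1A2 made up 84.5% ± 0.27 of the summed FPKM of ALDH1A1, ALDH1A2 and ALDH1A3, against 53.6% ± 0.18 in the Helz-null libraries (SD, n = 2 of each). The summed level of the family was 14.5 and 14.2 FPKM in the WT libraries and 5.84 and 5.51 FPKM in the Helz-null libraries. ALDH1A3 had 8.01 and 7.42 CPM in WT and 8.68 and 8.50 CPM in Helz-null cells (log2FC 0.15, adjusted p = 0.27 from edgeR) and was not called. ALDH1A1 had very few reads, 9 and 11 counts in WT and 30 and 35 in Helz-null cells. Its log2FC of 1.60 (standard error 0.47) missed the threshold (adjusted p = 0.0072 from edgeR), and it was called under 2 of the 11 alternatives that tested it.

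RDH10, which oxidises retinol to retinaldehyde, the substrate of ALDH1A2, had 57.7 and 56.5 CPM in WT and 52.6 and 56.1 CPM in Helz-null cells (log2FC -0.069, adjusted p = 0.25 from edgeR). DHRS3 (chromosome 1, 12627939 to 12678216), which returns retinaldehyde to retinol, had 7.54 and 7.73 CPM in WT and 5.22 and 5.09 CPM in Helz-null cells. Both Helz-null values of DHRS3 lay below both WT values, and the call was lower (log2FC -0.57, standard error 0.11). The 20 genes nearest to DHRS3 had a median log2FC of -0.059, with 4 called higher and 3 called lower.

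**Figure D2:**
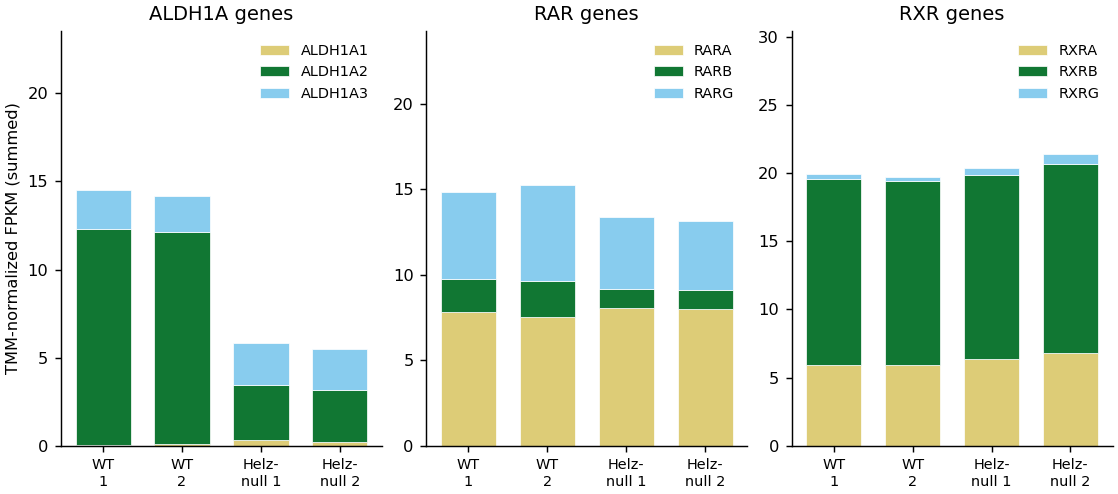
Summed TMM-normalized FPKM of the ALDH1A, RAR and RXR genes in each library, stacked by gene, from 0. The ALDH1A column is shorter in both Helz-null libraries and so is its ALDH1A2 part, and the RXR columns differ little between groups.

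The 3 RAR genes differed among themselves. RARB (chromosome 3, 24729378 to 25639423), the receptor gene that is itself induced by retinoic acid, had 7.46 and 8.35 CPM in WT and 4.42 and 4.43 CPM in Helz-null cells (log2FC -0.83, standard error 0.12). RARG (chromosome 12, 53604351 to 53626764) had 17.6 and 19.1 CPM in WT and 14.5 and 13.8 CPM in Helz-null cells (log2FC -0.37, standard error 0.075). For both genes the groups did not overlap and the call was lower. RARA (chromosome 17, 38465432 to 38513895) had 34.2 and 32.9 CPM in WT and 35.1 and 34.8 CPM in Helz-null cells (log2FC 0.054, standard error 0.053) and was not called. Among the 20 genes nearest to RARB the median log2FC was -0.20, with 12 called lower and 0 called higher, and the part of this neighbourhood in the RARB value was not tested. The corresponding medians were -0.013 for RARG and 0.066 for RARA. RARA-AS1, on the strand opposite to RARA, had between 14 and 41 counts per library, and whether the counting used strand is not given in the sources used here.

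Per length, RARA was the most abundant RAR mRNA in every library. Its share of the summed RAR FPKM was 51.2% ± 2.32 in WT and 60.4% ± 0.46 in Helz-null cells (SD, n = 2 each). The share of RARG went from 35.6% ± 1.51 to 31.2% ± 0.59, and that of RARB from 13.2% ± 0.81 to 8.41% ± 0.13. The summed RAR level was 15.0 ± 0.27 FPKM in WT and 13.3 ± 0.18 FPKM in Helz-null cells, so the family as a whole differed far less than ALDH1A2.

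The RXR genes encode the partners with which RARs bind DNA. RXRA (chromosome 9, 137208944 to 137332431) had 43.4 and 43.3 CPM in WT and 46.7 and 49.999 CPM in Helz-null cells (log2FC 0.16, standard error 0.048). Its groups did not overlap, but the call was not made, and scaling by library size only made it. RXRB (chromosome 6, 33161365 to 33168442) had 41.2 and 40.7 CPM in WT and 40.5 and 41.8 CPM in Helz-null cells. The RXRB values of the groups overlapped, with a log2FC of 0.011 (standard error 0.049) whose sign changed with the GC correction and without Helz-null replicate 2. SLC39A7, which overlaps RXRB on the other strand, was more abundant, at 147 to 162 CPM, and whether reads of it were counted for RXRB was not tested. RXRG, the third family member and not in the list of 9, was rare at 0.857 and 0.957 CPM in WT and 1.54 and 1.94 CPM in Helz-null cells. RXRG was called higher (log2FC 0.97, standard error 0.25, adjusted p = 0.0024 from edgeR), but not by DESeq2, against a fold change of at least 1.2, or without WT replicate 1 or Helz-null replicate 2. Of the 20 genes nearest to RXRG 9 were called higher and 2 lower, with a median log2FC of 0.16, and their part in the RXRG value was not tested.

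The binding proteins carry retinoic acid inside the cell. CRABP2 (chromosome 1, 156669398 to 156675608), which delivers it to RARs, had 26.4 and 26.2 CPM in WT and 27.4 and 27.97 CPM in Helz-null cells (log2FC 0.076, standard error 0.059) and was not called. CRABP1 (chromosome 15, 78632695 to 78640567) had 0 counts in all 4 libraries, which at the floor of 3 counts allows up to 0.0421 to 0.0718 CPM in a library. FABP5, a carrier that can bring retinoic acid to PPARD instead, had 84.7 and 83.3 CPM in WT and 76.1 and 75.9 CPM in Helz-null cells. FABP5 was called lower (log2FC -0.15, adjusted p = 0.0029 from edgeR), but in only 6 of 13 alternatives. The call was lost with DESeq2, with scaling by library size only, with the GC correction, with the fold change limit of 1.2, and when WT replicate 1 or either Helz-null replicate was left out.

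The CPM of the 2 groups did not overlap for 7 of the 8 tested members, beside 65.1% of all genes tested. Ordered by FPKM in WT cells, CRABP2 was the highest with 22.6 ± 0.11, followed by RXRB with 13.6 ± 0.12, ALDH1A2 with 12.1 ± 0.18 and RARA with 7.70 ± 0.21 (SD, n = 2). RXRA had 5.93 ± 0.014, RARG 5.35 ± 0.32, DHRS3 3.92 ± 0.069 and RARB 1.99 ± 0.16. In Helz-null cells CRABP2 (23.8 ± 0.33 FPKM) and RXRB (13.6 ± 0.30 FPKM) kept the top of the order. ALDH1A2, at 3.04 ± 0.14 FPKM, then stood below RARG (4.13 ± 0.13) and just above DHRS3 (2.65 ± 0.048). In both groups the library values of no 2 neighbours in these orders overlapped. These per-length levels depend on the gene width of the deposited table.

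The other genes of the pathway were taken from 5 lists by function, together 92 genes, all of them in the table and 66 with enough reads for the test. The lists were chosen with earlier results of these data known, so the calls and adjusted p-values are a description and no independent test. Of the 66 genes 16 were called, 5 higher and 11 lower, beside 9.83% and 11.5% of all genes tested, and their median log2FC was 0.016. The smaller counts by list below are to be read against the same shares. Without Helz-null replicate 2 the number was 10. Of 17 tested enzymes of retinoid metabolism 1 was called, CYP26A1, which degrades retinoic acid. CYP26A1 had 3.85 and 5.05 CPM in WT and 2.51 and 2.38 CPM in Helz-null cells (log2FC -0.85, standard error 0.16, adjusted p = 9.49e-05 from edgeR), with both Helz-null libraries below both WT libraries. Its paralog CYP26B1 had overlapping values, 7.51 and 6.34 CPM in WT and 7.399 and 6.86 CPM in Helz-null cells, and a log2FC of 0.023 (adjusted p = 0.90 from edgeR). Among the 20 genes nearest to CYP26A1 the median log2FC was 0.0083.

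Of 3 tested carriers 1 was called (FABP5), and of 12 tested receptors that pair with RXR or belong to its family 1 was called (RXRG). Among 16 co-regulators of nuclear receptors, 3 were called higher and 1 lower. TBL1X and GPS2, subunits of corepressor complexes of nuclear receptors, were called higher. TBL1X had 91.0 and 95.7 CPM in WT and 104.6 and 105.4 CPM in Helz-null cells (log2FC 0.17, adjusted p = 0.00032 from edgeR). GPS2 had 66.4 and 66.6 CPM in WT and 75.7 and 78.1 CPM in Helz-null cells (log2FC 0.21, adjusted p = 7.08e-05 from edgeR), while the corepressor NCOR1 was not called. PRMT1, an arginine methyltransferase, was called lower with a log2FC of -0.18. Neither TBL1X nor GPS2 was called without Helz-null replicate 2, and TBL1X was not called without WT replicate 1.

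Of 23 tested genes listed as retinoic acid targets, members left out, 9 were called lower and 1 was called higher, beside 11.5% and 9.83% of all genes tested. This list too was chosen with earlier results known, so the counts do not measure an enrichment. The median log2FC of the list was -0.21, and -0.13 without Helz-null replicate 2. It was -0.56 over the 10 tested HOX genes of the list and 0.023 over the other 13 tested genes, of which 2 were called lower and 1 higher. The genes called lower were CYP26A1, 7 HOX genes and ZNF703, and the gene called higher was RET, a receptor tyrosine kinase. All 10 tested HOX genes of the list, which set position along the body axis, had a log2FC below 0, from -0.998 for HOXB5 to -0.18 for HOXA3, and 3 of them were not called. HOXB5 had 22.0 and 21.7 CPM in WT and 11.3 and 10.7 CPM in Helz-null cells (adjusted p = 7.36e-13 from edgeR). HOXA5 had 82.0 and 79.6 CPM in WT and 55.1 and 54.2 CPM in Helz-null cells (log2FC -0.57, adjusted p = 3.76e-13). The groups of both genes were well separated. Among the others called were HOXA4 (log2FC -0.81), HOXB2 (-0.48), HOXB3 (-0.38) and HOXB4 (-0.57). HOX genes lie in clusters and are not independent of each other, and the nearest genes of HOXA5 and HOXB5 had median log2FC of -0.17 and -0.030, with 8 and 7 of 20 called lower and 1 and 2 called higher. RET rose from 5.0 and 4.26 CPM to 6.64 and 7.15 CPM (log2FC 0.57, adjusted p = 0.00034 from edgeR). Without Helz-null replicate 2 neither RET nor ZNF703 (log2FC -0.16) was called, and without Helz-null replicate 1 HOXB4 was not called. TGM2 (log2FC 0.57, adjusted p = 0.017 from edgeR) and STRA6 were not called.

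**Figure D3:**
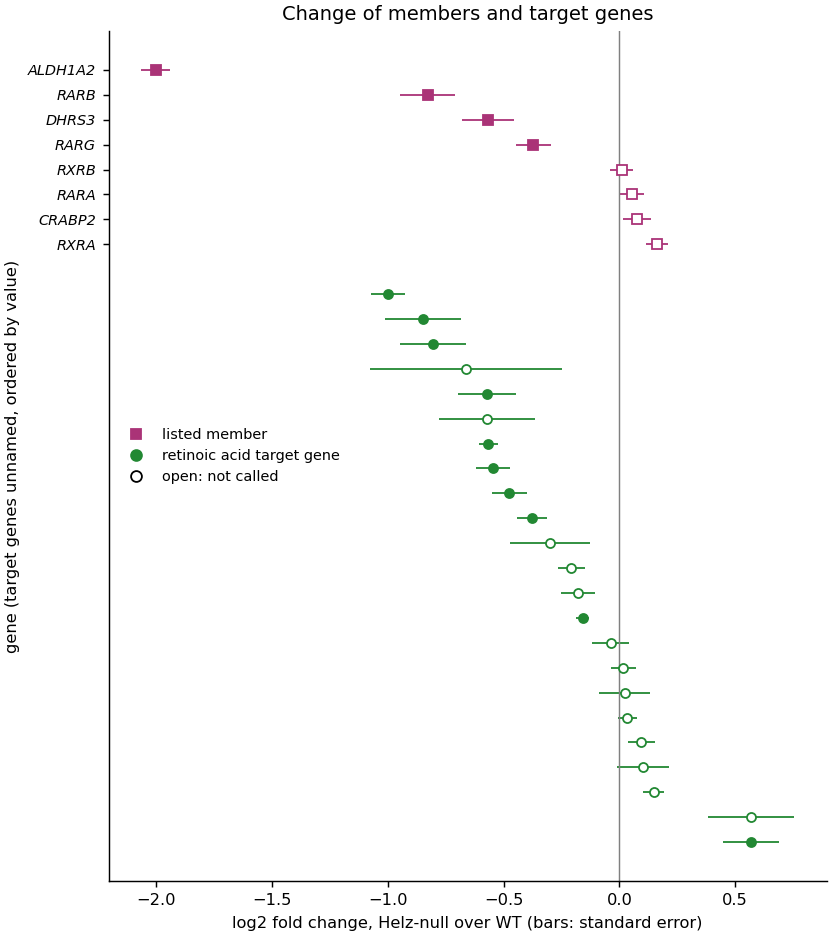
Log2 fold change of Helz-null over WT with its standard error for the 8 tested members (squares) and the 23 tested target genes (circles, ordered by value and not named), with filled symbols for genes called at an FDR under 0.005. ALDH1A2 lies farthest to the left at -2.004, and 9 of the filled circles lie left of 0 and 1, RET, to the right.

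The genes whose levels were most like those of ALDH1A2 over the 4 libraries were found from log2 CPM centred on each gene, by the root mean square difference. The 5 nearest were LGALS3 (0.045), FERMT1 (0.046), RPRM (0.097), HSPA1A (0.10) and MAGEA11 (0.11). LGALS3, a galectin, had 2.73 and 2.80 CPM in WT and 0.662 and 0.603 CPM in Helz-null cells. FERMT1, an integrin activator, had 4.10 and 3.85 CPM in WT and 0.946 and 0.884 CPM in Helz-null cells. Both stood near 23% of WT and were far less abundant than ALDH1A2. MAGEA11 had between 2 and 15 counts per library. HSPA1A has a near-identical copy in the genome, so its counts are uncertain. None of the 5 belongs to the 9 genes or to the pathway lists.

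The log2FC of the called members were also computed with single libraries left out. ALDH1A2 ranged from -2.04 to -1.95 on the log2 scale, RARB from -0.91 to -0.75, DHRS3 from -0.59 to -0.55 and RARG from -0.44 to -0.31. These fits reuse the libraries on which the members were selected, so they are no independent test of the changes. When the test was made against a fold change of at least 1.2, ALDH1A2 and RARB were still called and DHRS3 and RARG were not.

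**Figure D4:**
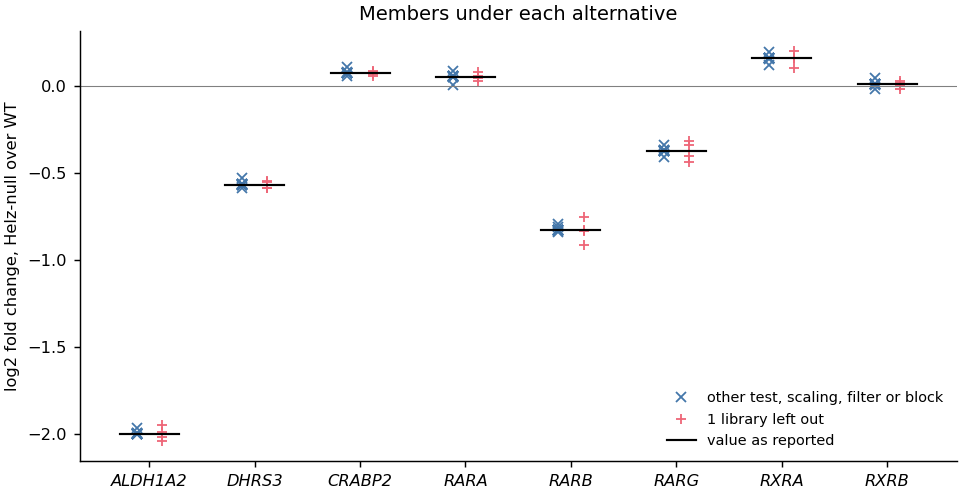
Log2 fold change of Helz-null over WT for each tested member as reported (black bars), under 9 other tests, scalings, filters or models (crosses) and with 1 library left out (plus signs). ALDH1A2 stays between -2.04 and -1.95, and only RXRB crosses 0.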

How the data were processed

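Processed files covered 4 libraries, and their values were used as deposited. The authors used TopHat2 to align the paired ends to hg19, after a Bowtie2 step against ribosomal RNA, and QuasR to tabulate counts by gene. The deposited counts are not normalized, and versions, annotation, strand and handling of mates are not given in the sources used here. The library totals exceed the mapped reads that the study states, so a count may be 1 mate of a pair. In that case the printed counts and the floor of 3 counts stand for fewer fragments. Overlapping genes are uncertain. A deposited table of fold changes, log2 CPM and p-values for 10978 genes that the authors selected by FPKM was used for its gene symbols only.

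Counts were tested in R 4.3.3 with edgeR 4.0.16 (filterByExpr, TMM, estimateDisp, glmQLFit, glmQLFTest, genotype as the only term) over 16087 genes, which were adjusted together by the Benjamini-Hochberg method at an FDR of 0.005. DESeq2 1.42.0 was an alternative. Groups hold 2 libraries each, called biological replicates by the study. The p-values set the difference between groups against the spread between libraries of a group, moderated over all genes tested. Spread between separately edited lines does not enter them. Floors cover counting error only. CPM are TMM-normalized, and FPKM divide them by the deposited gene width. Standard errors came from the log2FC and the F statistic. Log2 CPM for distances used a prior count of 2.

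The members and gene lists were chosen with earlier results of these data known. Named genes were the 9 members, HELZ, pathway genes called at the threshold, ALDH1A1, ALDH1A3, RXRG, CYP26A1, CYP26B1 and RDH10, and the 5 genes most like ALDH1A2. Other genes named were chosen after their values were seen, and some pathway genes called are not reported here. Positions came from the GENCODE annotation on GRCh37, the same assembly as hg19, in which 23953 of 27011 symbols were found, 1230 of them through RefSeq synonyms. Neighbours were the nearest 10 tested genes on each side with a mean log2 CPM of at least 2. On simulated counts for 16087 genes, 92 of 100 genes changed 2-fold and 99 of 100 changed 4-fold were called, with 0 other calls. The simulated counts used a common dispersion for all genes and no difference between lines, so these numbers do not carry over to the real libraries. Alternatives changed the scaling, test, filter, threshold, GC content, replicate block and libraries.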

Additional observations from a re-analysis of the deposited data

How the results depend on the processing

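Under 13 alternatives the 4 members called lower kept their direction. The alternatives reuse the libraries on which the members were selected and are no independent test. Requiring a fold change above 1.2 in the test left 687 of 3435 genes called, 2 of 4 members and 5 of 16 pathway genes. RXRB, not called in any fit, went from 0.011 to -0.018 on the log2 scale with the GC correction and ranged from -0.014 (without Helz-null replicate 2) to 0.029 (without Helz-null replicate 1) when single libraries were left out. With single libraries left out, the number of pathway genes called ranged from 10 (without Helz-null replicate 2) to 20 (without WT replicate 2). Scaling by library size only raised the share of calls that were higher from 46.0% to 60.2% and called RXRA (log2FC 0.20). Of the 16 pathway genes, 5 were called in every alternative, among them CYP26A1, HOXA4, HOXA5 and HOXB5.

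The replicate numbers showed no sign of pairing, with a correlation of 0.027 between the deviations of same-numbered libraries over 11829 genes. With the number as a replicate block, 3954 genes, 4 members and 20 pathway genes were called. The GC correction covered 93.9% of the tested genes. Depth limits ALDH1A1, with 9 to 35 counts per library, and CRABP1, with 0.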
